A study of Mus musculus with 8 samples.

Results

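Lhx5 and 9 genes of its protein family and cofactor set were examined in mouse anterior neural progenitor cells that lack an enhancer of Lhx5. The 10 genes were the table entries whose symbol was Lhx5, Lhx1, Lhx2, Lhx9, Lmx1a or Lmx1b (LIM-homeodomain factors), Ldb1 or Ldb2 (LIM-domain-binding cofactors), or Lmo1 or Lmo4 (LIM-only proteins), a rule that goes by gene family and uses no measured value. They are 10 of 46406 genes listed. A mean of at least 1 FPKM over the 8 libraries (FPKM being fragments scaled to transcript length and to the mapped total of a library) was reached by 8 of them, and Lhx1 and Lhx9 fell below it.

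Poly(A) RNA was sequenced in 3 groups of mouse cells. Clone 1 and clone 2 are clonal lines named PE Lhx5(-109)-/-, homozygous for a CRISPR-Cas9 deletion of a poised enhancer of Lhx5, an element marked but inactive in embryonic stem cells, and each gave 2 libraries. The WT group is the E14 embryonic stem cell line and gave 4 libraries. All groups were differentiated alike, in N2B27 medium with 10 ng/ml bFgf for 3 days and without it for 2 days, and with 5 µM of the WNT inhibitor Xav939 in the medium between day 2 and day 5. Transfection, puromycin selection and growth by serial dilution are described for the deleted lines, so their part and that of the deletion cannot be told apart, and each clone is 1 line. The labels call the libraries biological replicates without naming separate differentiations for each, so p-values measure the spread among these libraries. In bulk RNA, fewer cells of a type and less RNA per cell cannot be told apart.

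LIM-homeodomain factors bind DNA through a homeodomain and bind LDB proteins through a pair of LIM domains. LDB proteins associate with one another and so bring several factors into one complex. LIM-only proteins carry LIM domains without a homeodomain and compete for the same LDB surface. In the vertebrate neural tube, combinations of these factors mark regions and neuron classes.

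The anterior neural label was checked against marker genes. The neural progenitor factor Sox2 lay at 119 to 138 FPKM in null libraries, against 129 to 140 FPKM in WT libraries. The other 3 progenitor markers differed between the lines. Pax6 had 32.1 and 30.3 FPKM in clone 1, 17.8 and 11.1 FPKM in clone 2, and 36.2 to 39.8 FPKM in WT, and it fell in clone 2 by 1.39 on the scale of log2(FPKM + 1) (limma with Benjamini-Hochberg adjusted p = 0.0050). Sox1 and Nes both fell in clone 1, by 0.55 (limma adjusted p = 0.00584) and 0.45 (limma adjusted p = 0.0252), and both rose in clone 2, by 0.31 (limma adjusted p = 0.0365) and 0.38 (limma adjusted p = 0.0475). The part of these shifts in the member levels was not tested. Otx2, a factor of the forebrain and midbrain, lay at 159 to 222 FPKM in null libraries, against 196 to 220 FPKM in WT libraries. Clone 1 replicate 2 stood apart in its content of RNAs that normally lack a poly(A) tail, with Rn7sk at 250.2 FPKM and Rpph1 at 371 FPKM, against 8.05 to 28.4 FPKM and 3.02 to 22.8 FPKM in the other 7 libraries. Calls of tested members that were lost without that library are named. Marker calls, shares, ratios and the fits of Lhx1 and Gm27199 are given with all libraries only.

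Lhx5 encodes a factor of the developing forebrain and is the gene for which the deleted element is named. It lies on chromosome 5 (GRCm38 chr5:120431699-120441223, plus strand). Its level was 1.24 and 0.854 FPKM in clone 1 libraries, 1.90 and 1.26 FPKM in clone 2 libraries, and 16.9, 17.5, 16.2 and 15.0 FPKM in WT libraries. Every null library lay below every WT library. Clone 1 held 6.38 percent and clone 2 held 9.63 percent of the WT mean. On the scale of log2(FPKM + 1), used for every fold change here, Lhx5 fell by 3.09 in clone 1 (95 percent interval -3.37 to -2.82, limma with Benjamini-Hochberg adjusted p = 3.6e-06) and by 2.76 in clone 2 (interval -3.04 to -2.49, adjusted p = 7.23e-06). The remaining Lhx5 RNA did not pass the test between the clones, with a log2 difference of 0.33 for clone 2 against clone 1 (interval 0.016 to 0.64, limma adjusted p = 0.0881). That difference passed without clone 1 replicate 1 (limma adjusted p = 0.0499) and without clone 2 replicate 2 (limma adjusted p = 0.0377).

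An antisense transcript at the start of Lhx5 was listed at 0 in the deleted lines. Gm27199 (ENSMUSG00000098649, GRCm38 chr5:120419659-120431767, minus strand) is annotated as antisense, and its start lies 68 bases inside Lhx5, so that 69 exonic bases are shared. It was picked after its values were seen. Gm27199 was listed at 0 in all 4 null libraries, against 1.32, 1.71, 1.37 and 1.31 FPKM in WT libraries. The authors' deposited table gives a mean of 0 reads in null and 21.14 reads in WT. Its mean over the 8 libraries was below 1 FPKM, so it was left out of the main test. In the fit without a filter on low values, limma's adjusted p for Gm27199 was 0.00152 in clone 1 and 0.00114 in clone 2. There 5.32 percent of all genes passed in clone 1 and 4.10 percent in clone 2. These p-values rest on the values by which Gm27199 was picked, so they are no separate evidence. The sources do not state a strand setting for the counting, so that reads of Lhx5 and of Gm27199 over the shared bases cannot be told apart.

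**Figure D1:**
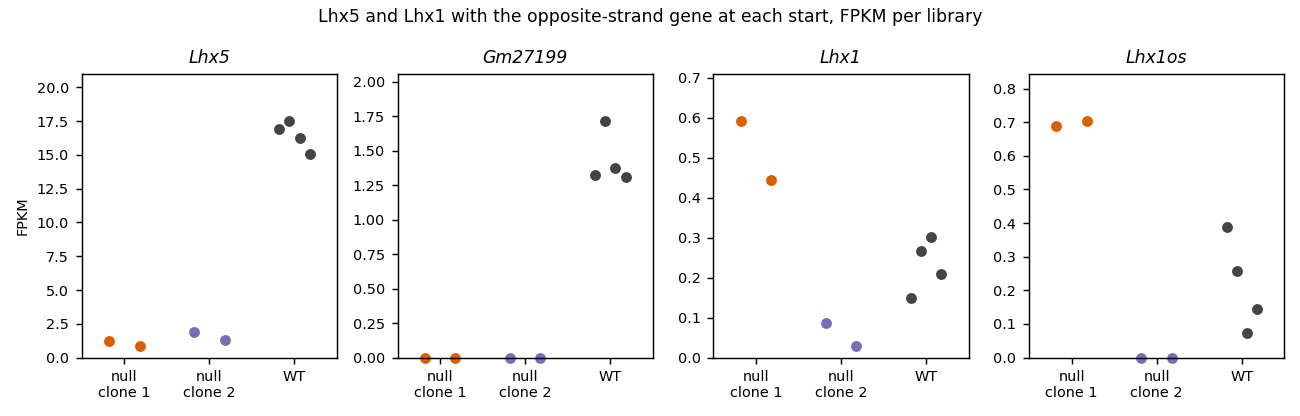
Levels in FPKM of Lhx5 and Gm27199, and of Lhx1 and Lhx1os, in each library of clone 1, clone 2 and WT. Gm27199 is listed at 0 in the 4 null libraries and lies between 1.31 and 1.71 FPKM in WT, and Lhx1os is listed at 0 in clone 2 while both clone 1 libraries lie at about 0.7 FPKM.

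Lhx1, the closest relative of Lhx5 and in the mouse a gene needed for head formation, was scarce in all groups (GRCm38 chr11:84518284-84525535, minus strand). Its level was 0.591 and 0.445 FPKM in clone 1 libraries, 0.0875 and 0.0301 FPKM in clone 2 libraries, and 0.150, 0.266, 0.301 and 0.208 FPKM in WT libraries. Clone 1 lay above all WT libraries and clone 2 below all of them. Lhx1 was left out of the main test for its low level. In the fit without that filter the log2 difference was -0.52 for clone 2 against clone 1 (limma adjusted p = 0.0059), whereas 0.30 for clone 1 against WT (limma adjusted p = 0.0549) and -0.22 for clone 2 against WT (limma adjusted p = 0.136) did not pass. Lhx1os, a long noncoding RNA that starts 125 bases from Lhx1 on the other strand and was likewise picked after its values were seen, had 0.688 and 0.703 FPKM in clone 1, was at a listed 0 in each clone 2 library, and had 0.388, 0.259, 0.0726 and 0.146 FPKM in WT. Lhx1 and Lhx1os were thus ordered alike over the groups, both at under 1 FPKM in every library. In the authors' deposited table, Lhx1 has a mean of 31.57 reads in null and 23.34 reads in WT, so few reads stand behind these values.

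Lhx2, a factor needed in the mouse for eye and cortex formation, was lower in both deleted lines. Its promoter region is shown because Lhx2, like Lhx5 and Ldb2, was lower in every null library than in any WT library. The window runs over 250 bases before and 50 bases after the transcription start (RefSeq, GRCm38.p6 chr2:38339031-38339330, plus strand):
Lhx2: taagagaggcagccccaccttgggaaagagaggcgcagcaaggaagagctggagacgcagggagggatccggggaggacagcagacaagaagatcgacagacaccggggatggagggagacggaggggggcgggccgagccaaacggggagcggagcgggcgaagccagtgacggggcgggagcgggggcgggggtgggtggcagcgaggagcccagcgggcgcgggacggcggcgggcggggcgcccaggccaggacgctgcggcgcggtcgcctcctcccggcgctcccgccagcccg
Lhx2 had 5.84 and 6.49 FPKM in clone 1 libraries, 7.25 and 3.58 FPKM in clone 2 libraries, and 12.0, 10.2, 12.3 and 11.5 FPKM in WT libraries. The null and WT libraries did not overlap, and the libraries of clone 2 lay farther apart than those of clone 1. The groups share 1 spread in the fit, so the spread of the clone 2 libraries also enters the test of clone 1 against WT. The mean was 53.7 percent of WT in clone 1 and 47.1 percent of WT in clone 2. Lhx2 fell in clone 1 by 0.80 on the log2 scale (interval -1.30 to -0.30, limma adjusted p = 0.046) and in clone 2 by 1.02 (interval -1.52 to -0.52, limma adjusted p = 0.0251). The clone 1 call was lost in 10 of 13 alternatives, with limma adjusted p up to 0.155 without clone 1 replicate 2, and the clone 2 call was lost without clone 2 replicate 2 (limma adjusted p = 0.0567) and without WT replicate 1, 3 or 4 (limma adjusted p = 0.0544, 0.0608 and 0.0649). Between clone 2 and clone 1 the log2 difference of -0.22 had an interval of -0.80 to 0.35 and did not pass. That difference was -0.65 without clone 2 replicate 1 (limma adjusted p = 0.00689) and 0.20 without clone 2 replicate 2, so 1 library decided its direction.

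Lhx9, the closest relative of Lhx2, was nearly silent. Its level was 0.119 and 0.0929 FPKM in clone 1, 0.0880 and 0.125 FPKM in clone 2, and 0.131, 0.154, 0.118 and 0.0528 FPKM in WT. All null values lay within the WT range, below the level tested.

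Lmx1b, a factor of the midbrain and its boundary with the hindbrain and of dopaminergic neurons, was the most abundant of the 6 LIM-homeodomain factors in every group. The start of one of its RefSeq transcripts is shown because Lmx1b is the member that was higher in every null library (GRCm38.p6 chr2:33641049-33641348, minus strand), although this start is not a gene boundary in GENCODE M21:
Lmx1b: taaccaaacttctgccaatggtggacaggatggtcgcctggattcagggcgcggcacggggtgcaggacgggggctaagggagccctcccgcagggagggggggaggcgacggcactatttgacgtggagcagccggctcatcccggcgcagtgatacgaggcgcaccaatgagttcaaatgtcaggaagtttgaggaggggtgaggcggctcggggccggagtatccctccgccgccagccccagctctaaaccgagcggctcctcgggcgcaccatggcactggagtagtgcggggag
Lmx1b had 34.1 and 31.2 FPKM in clone 1 libraries, 42.3 and 41.2 FPKM in clone 2 libraries, and 28.4, 27.3, 25.8 and 28.0 FPKM in WT libraries. The 3 groups did not overlap, with clone 2 highest. Lmx1b rose by 0.59 on the log2 scale in clone 2 (interval 0.46 to 0.72, limma adjusted p = 0.00171) and by 0.25 in clone 1 (interval 0.12 to 0.37, limma adjusted p = 0.0229). The clone 1 call was lost without clone 1 replicate 1 (limma adjusted p = 0.0715), without WT replicate 3 (limma adjusted p = 0.0576) and without WT replicate 4 (limma adjusted p = 0.0524). The clones differed by 0.35 (interval 0.20 to 0.49, limma adjusted p = 0.00379).

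Levels of the midbrain and hindbrain markers moved with Lmx1b between the clones. Of the 7 markers, Hoxb1 was listed at 0 in 7 of 8 libraries. The summed level of all of them (En1, En2, Pax2, Wnt1, Gbx2, Egr2 and Hoxb1) was 96.1 to 108 FPKM in clone 1, 279 to 300 FPKM in clone 2 and 149 to 182 FPKM in WT, and 3 of the 5 tested fell in clone 1 (11.4 percent of all genes did) while 4 rose in clone 2 (7.06 percent of all genes did). Among them the signalling gene Wnt1 lay at 43.4 and 50.9 FPKM in clone 1, 165 and 177 FPKM in clone 2, and 85.0 to 104 FPKM in WT. The forebrain markers Six3, Rax, Hesx1 and Otx2 summed to 248 to 279 FPKM in clone 1, 166 to 191 FPKM in clone 2 and 240.1 to 287 FPKM in WT. Otx2 made up most of that sum. In clone 1, Six3 held 98.2, Rax 48.8, Hesx1 126 and Otx2 102 percent of the WT mean. In clone 2 they held 39.3, 19.6, 16.6 and 80.4 percent, in that order. Rax, Hesx1 and Otx2 passed as lower in clone 2 (6.96 percent of all genes did), and none of these markers passed in clone 1. The midbrain and hindbrain sum lay below WT in clone 1 and above WT in clone 2, and Lmx1b lay above WT in both. The part of this regional makeup in the Lmx1b, Lhx1 and Lmo1 values was not tested. The 3 pluripotency markers (Pou5f1, Nanog and Zfp42) summed to 57.1 to 62.0 FPKM in clone 1, 13.1 to 17.1 FPKM in clone 2 and 23.3 to 37.3 FPKM in WT. Pou5f1 made up most of that sum. In clone 1, Pou5f1 held 223, Nanog 185 and Zfp42 80.5 percent of the WT mean. In clone 2 these markers held 55.8, 46.1 and 40.0 percent, in that order. The neuron markers were Dcx, Elavl3, Map2 and Stmn2. Their sum was 55.8 to 63.2 in clone 1, 49.9 to 51.7 in clone 2 and 62.3 to 64.5 FPKM in WT. Cajal-Retzius neuron markers were Reln, Trp73, Calb2 and Ebf2. These summed to 12.4 to 12.9 in clone 1, 11.4 to 14.9 in clone 2 and 9.47 to 10.7 FPKM in WT. Elavl3 and Stmn2 fell in clone 2 (limma adjusted p = 0.0251 and 0.0179), and Calb2 rose (limma adjusted p = 0.0207). No neuron marker passed in clone 1. The part of pluripotency and neuron markers in member levels was not tested either. Markers of other lineages were low, with summed levels of 0.190 to 0.474 FPKM in null libraries and 0.0788 to 0.301 FPKM in WT libraries for endoderm, 0.642 to 1.01 FPKM in null and 0.681 to 1.03 FPKM in WT for mesoderm, and 1.58 to 2.17 FPKM in null and 2.01 to 2.09 FPKM in WT for neural crest.

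Lmx1a, the relative of Lmx1b in the roof plate and midbrain floor, had 8.18 and 8.34 FPKM in clone 1, 10.0 and 6.10 FPKM in clone 2, and 6.37, 6.93, 7.29 and 6.20 FPKM in WT. Clone 1 lay above WT, whereas the clone 2 libraries lay on both sides of the WT range. The log2 difference was 0.27 for clone 1 against WT (interval -0.081 to 0.62) and 0.20 for clone 2 against WT (interval -0.15 to 0.55), and neither passed the test. Without clone 2 replicate 1 the clone 2 value was -0.11, and the log2 difference of clone 2 against clone 1 then was -0.38 (limma adjusted p = 0.0331), against -0.068 with all libraries.

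**Figure D2:**
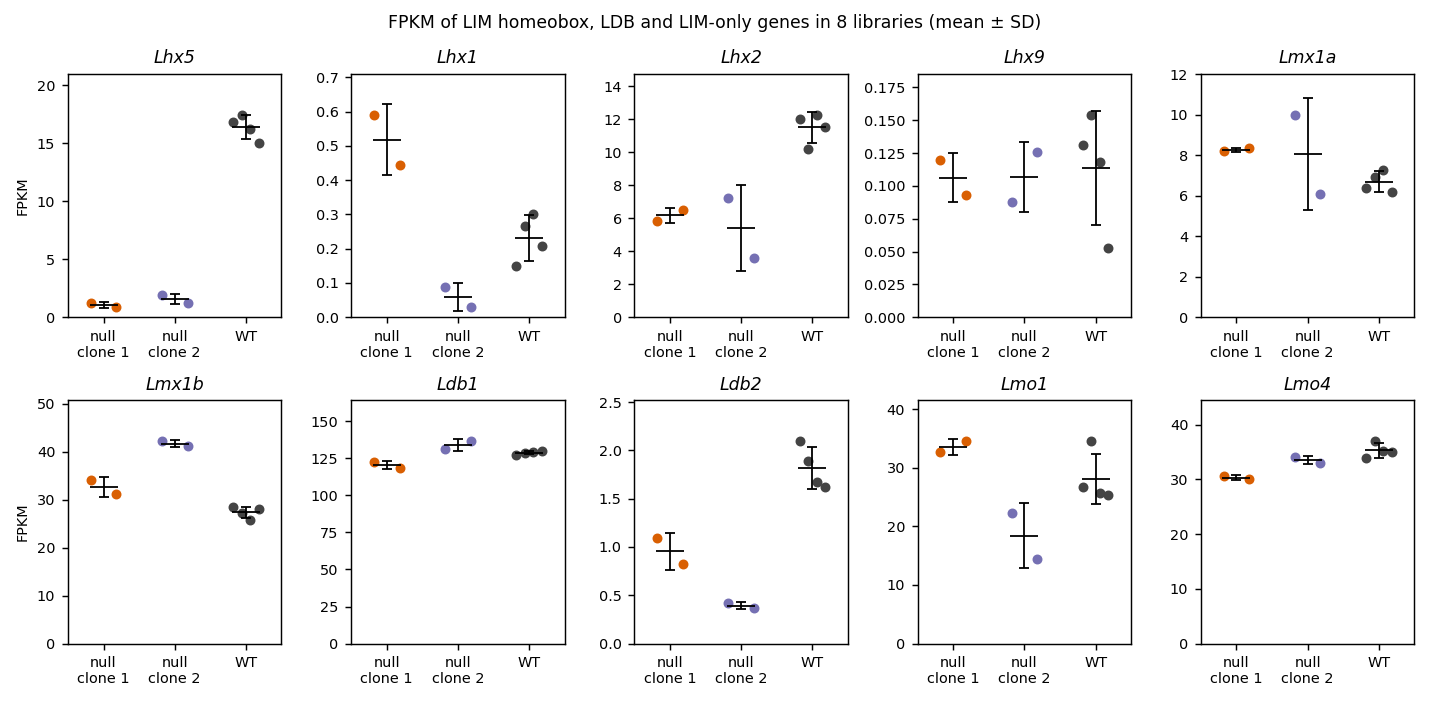
Levels in FPKM of the 10 genes, each on a linear axis of its own, with 1 point per library of clone 1, clone 2 and WT and black marks for the mean ± SD. Lhx5 lies at 0.854 to 1.90 FPKM in the null libraries and 15.0 to 17.5 FPKM in WT, while Ldb1 stays at 119 to 137 FPKM in null libraries and 127 to 130 FPKM in WT.

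Ldb1, the broadly expressed LDB cofactor, was the most abundant of the 10 genes in each group. It had 122 and 119 FPKM in clone 1, 131 and 137 FPKM in clone 2, and 127, 129, 129 and 130 FPKM in WT. The clone 1 values lay below WT and those of clone 2 above it, both by small margins. The log2 difference was -0.096 for clone 1 against WT (interval -0.17 to -0.022, limma adjusted p = 0.0789) and 0.056 for clone 2 against WT (interval -0.018 to 0.13). Between the clones it was 0.15 (limma adjusted p = 0.0128), a call lost after rescaling by the median ratio (limma adjusted p = 0.0808) and without clone 2 replicate 2 (limma adjusted p = 0.100). Ldb1 shares 177 exonic bases with Pprc1 on the other strand, which lay at 40.0 to 45.9 FPKM.

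Ldb2, the other LDB cofactor, was scarce and lower in both deleted lines. It had 1.09 and 0.820 FPKM in clone 1, 0.421 and 0.366 FPKM in clone 2, and 2.10, 1.89, 1.68 and 1.62 FPKM in WT. The 3 groups did not overlap, with clone 2 lowest. Ldb2 fell by 1.01 on the log2 scale in clone 2 (interval -1.26 to -0.77, limma adjusted p = 0.00294) and by 0.53 in clone 1 (interval -0.77 to -0.29, limma adjusted p = 0.0162). Between clone 2 and clone 1 the log2 difference was -0.49 (limma adjusted p = 0.0142), a call lost without clone 1 replicate 1 (limma adjusted p = 0.0625) and without clone 2 replicate 2 (limma adjusted p = 0.0739). Without clone 1 replicate 2 the clone 1 call was lost (limma adjusted p = 0.103). Ldb2 reached the minimum level for testing through its WT values, since its null mean was 0.674 FPKM. The authors' deposited table gives Ldb2 a mean of 37.74 reads in null and 78.42 reads in WT, a fold of 0.481, whereas the ratio of the mean FPKM values was 0.370.

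Lmo1, a LIM-only protein known as an oncogene in T-cell leukaemia and expressed in the developing brain, differed between the clones. Its promoter region is shown for the TAATTA motif that it holds (RefSeq, GRCm38.p6 chr7:109175158-109175457, minus strand), a core that homeodomain proteins commonly bind, with the motif in capitals:
Lmo1: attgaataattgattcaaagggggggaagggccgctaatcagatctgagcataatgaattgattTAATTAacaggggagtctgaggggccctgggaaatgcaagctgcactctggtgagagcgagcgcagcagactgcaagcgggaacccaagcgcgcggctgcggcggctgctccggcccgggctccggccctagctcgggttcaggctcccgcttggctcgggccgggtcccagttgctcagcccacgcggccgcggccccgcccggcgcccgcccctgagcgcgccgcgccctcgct
Lmo1 had 32.6 and 34.6 FPKM in clone 1, 22.3 and 14.5 FPKM in clone 2, and 26.8, 34.5, 25.7 and 25.3 FPKM in WT. Clone 1 overlapped the WT range at its upper end, and both clone 2 libraries lay below WT. The log2 difference for clone 2 against clone 1 was -0.86 (interval -1.39 to -0.34, limma adjusted p = 0.0205). This call was lost without clone 1 replicate 1 (limma adjusted p = 0.0596), clone 1 replicate 2 (limma adjusted p = 0.0877) or clone 2 replicate 2 (limma adjusted p = 0.0578). Against WT, the log2 difference of 0.26 in clone 1 (limma adjusted p = 0.380) and that of -0.60 in clone 2 (limma adjusted p = 0.0812) did not pass. Without clone 2 replicate 1 the clone 2 value passed, at -0.90 (limma adjusted p = 0.0177).

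Lmo4, a LIM-only protein needed in the mouse for neural tube closure, had 30.6 and 30.0 FPKM in clone 1, 34.0 and 33.0 FPKM in clone 2, and 33.8, 37.0, 35.2 and 35.1 FPKM in WT. Clone 1 lay below WT, and of the clone 2 libraries 1 lay below WT and 1 within its range. Lmo4 fell by 0.21 on the log2 scale in clone 1 (interval -0.32 to -0.10, limma adjusted p = 0.0221). The call was lost without clone 1 replicate 2 (limma adjusted p = 0.0998), WT replicate 3 (limma adjusted p = 0.0599) or WT replicate 4 (limma adjusted p = 0.0602). In clone 2 the log2 difference from WT was -0.072 (interval -0.18 to 0.036).

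The motif search covered 14 promoter windows of the 8 members with an entry, and Lhx5 and Ldb2 were not among them. TAATTA reads the same on both strands. It was present in 2 windows, both of Lmo1 and overlapping each other, and in 5.29 percent of all 32851 windows of this length. The windows printed above held 34 CG dinucleotides for Lhx2, 24 for Lmx1b and 29 for Lmo1, against a median of 7 over all windows, and 19.98 percent of all windows held at least 24. A match is a run of letters and not a measured binding site.

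**Figure D3:**
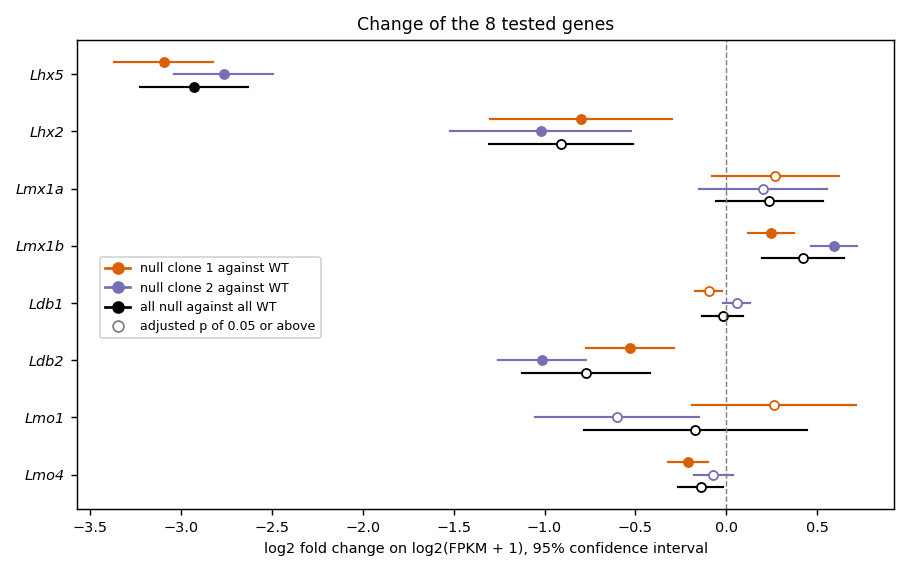
Log2 differences of log2(FPKM + 1) with 95 percent intervals from limma for the 8 tested members, for clone 1 against WT, clone 2 against WT and all null against all WT, with open points where the adjusted p was 0.05 or above. Lhx5 stands at -3.09 in clone 1 and -2.76 in clone 2, and the other members lie between -1.02 and 0.59.

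Of the 8 tested members, 5 passed in clone 1 against WT, where 15.6 percent of all 14521 tested genes passed, with Lmx1b higher (4.16 percent of all genes were) and Lhx5, Lhx2, Ldb2 and Lmo4 lower (11.4 percent of all genes were). After rescaling by the median ratio, 6.60 percent of all genes were higher and 6.75 percent lower in clone 1, and Lhx2 was the member whose call was lost. Without clone 1 replicate 2, only Lhx5 and Lmx1b passed in clone 1, where 3.03 percent of all genes did. Without WT replicate 3 or WT replicate 4, Lhx5 and Ldb2 passed, where 7.09 and 6.95 percent of all genes did. Without clone 1 replicate 1, 3 members passed, where 21.3 percent of all genes did. In clone 2 against WT, 4 passed, where 14.0 percent of all genes did, with Lmx1b higher (7.06 percent of all genes) and Lhx5, Lhx2 and Ldb2 lower (6.96 percent of all genes). Ldb2, counted as lower in both clones, reached the tested level only through its WT values. The median log2 difference of the 8 members was -0.15 in clone 1, beside -0.048 over all tested genes, and -0.34 in clone 2, beside 0 over all tested genes. In clone 2 against clone 1, 4 of the 8 passed, where 39.9 percent of all genes did, with Ldb1 and Lmx1b higher (24.9 percent of all genes) and Ldb2 and Lmo1 lower (15.0 percent of all genes). That share lies near the background. After rescaling by the median ratio, 20.4 percent of all genes were higher and 20.2 percent lower. Without clone 2 replicate 2 the members' count was 2, where 21.3 percent of all genes passed. The clone comparisons share the WT libraries.

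When both clones were pooled as 4 null against 4 WT libraries, the error included the spread between the clones. The libraries of a line were taken as independent. Lhx5 alone of the 8 members passed (log2 difference -2.93, limma adjusted p = 8.22e-05), where 0.0551 percent of all genes did, 0.00689 percent higher and 0.0482 percent lower. With libraries of a line treated as correlated, Lhx5 again passed alone of the 8 (limma adjusted p = 0.0050), where 0.0207 percent of all genes did. The deletion removed an enhancer of Lhx5. The null and WT libraries did not overlap for 4 of the 8, with Lmx1b above and Lhx5, Lhx2 and Ldb2 below. Ldb2 was among the tested genes only through its WT values. Over all tested genes, 4.26 percent did not overlap, 1.03 percent above and 3.22 percent below. The pooled log2 differences of Lhx2 (-0.91, limma adjusted p = 0.270), Ldb2 (-0.77, limma adjusted p = 0.301) and Lmx1b (0.42, limma adjusted p = 0.493) did not pass. In the authors' deposited table, whose p-values have no stated test, 3 of the 10 members passed after Benjamini-Hochberg adjustment, namely Lhx5, Lhx2 and Lmx1b, where 0.782 percent of all genes did.

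FPKM is a level per length, so the members' levels can be ordered. In clone 1, Lmo1 and Lmx1b overlapped below Ldb1, followed by Lmo4, Lmx1a and Lhx2, while Lhx5 and Ldb2 overlapped at about 1 FPKM above Lhx1 and Lhx9. In clone 2 the order was Ldb1, Lmx1b, Lmo4, Lmo1, then Lmx1a and Lhx2 with overlapping values, then Lhx5, Ldb2, Lhx9 and Lhx1. In WT the order was Ldb1, then Lmo4, Lmo1 and Lmx1b, of which Lmo1 overlapped each of the others, then Lhx5, Lhx2, Lmx1a and Ldb2, and Lhx1 and Lhx9 with overlapping values. Lhx5 was the fifth in WT and the seventh in both clones.

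The makeup of the LIM-homeodomain RNA differed between the null lines and WT. The summed level of the 6 factors was 47.4 and 50.1 FPKM in the clone 1 libraries, 52.3 and 61.6 FPKM in the clone 2 libraries, and 61.1 to 63.9 FPKM in WT. Lhx5 made up 2.14 percent of that sum in clone 1, 2.75 percent in clone 2 and 26.3 percent in WT. Lmx1b made up 67.0 percent in clone 1, 73.7 percent in clone 2 and 43.9 percent in WT, and Lhx2 made up 12.7 percent in clone 1, 9.30 percent in clone 2 and 18.4 percent in WT. A share also moves when another member of the sum moves. The 5 factors other than Lhx5 summed to 46.6 to 48.9 FPKM in clone 1, 51.0 to 59.7 FPKM in clone 2 and 44.8 to 47.0 FPKM in WT.

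The ratio of LIM-homeodomain to LDB RNA, summed FPKM over summed FPKM, was 0.402 ± 0.0068 in clone 1 (SD, n = 2), 0.425 ± 0.0613 in clone 2 (SD, n = 2) and 0.477 ± 0.0125 in WT (SD, n = 4). One clone 2 library, at 0.468, lay within the WT range of 0.464 to 0.494. With Lhx5 taken out of the sum, the ratio was 0.393 in clone 1, 0.413 in clone 2 and 0.352 in WT, and every null library lay above every WT library. The ratio of LIM-only RNA (Lmo1 and Lmo4) to LIM-homeodomain RNA was 1.31 in clone 1, 0.911 in clone 2 and 1.02 in WT. These ratios describe RNA, not protein, and were not tested.

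**Figure D4:**
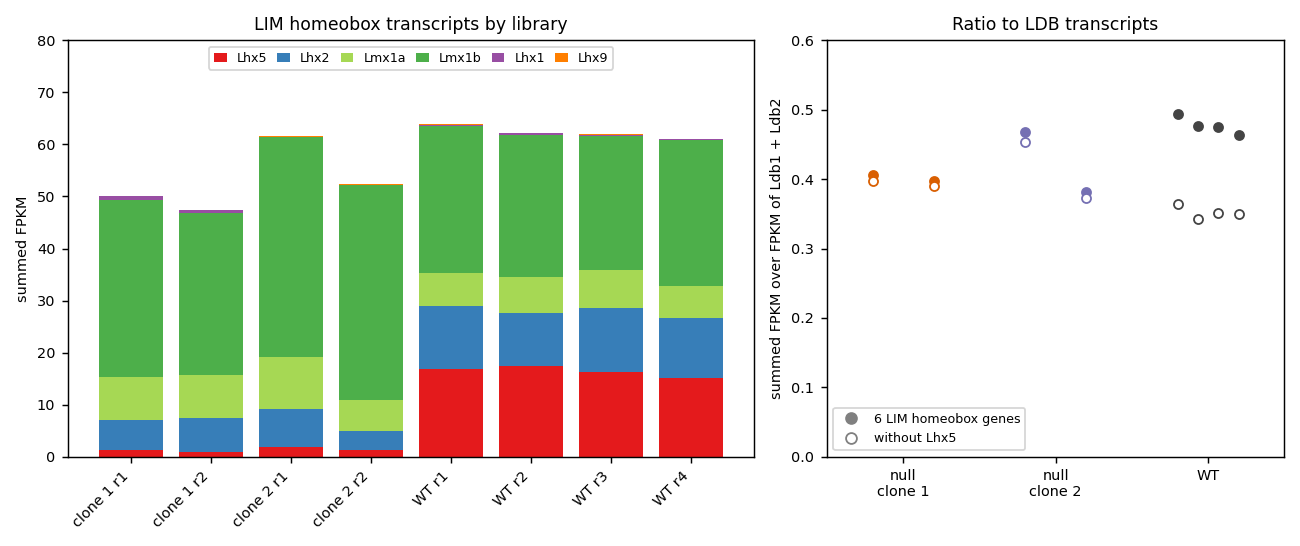
Left, summed FPKM of the 6 LIM-homeodomain factors in each library of clone 1, clone 2 and WT, stacked by gene, and right, the ratio of that sum to the FPKM of Ldb1 and Ldb2 per library with Lhx5 (filled) and without it (open). Lhx5 is 2.14 and 2.75 percent of the sum in clone 1 and clone 2 and 26.3 percent in WT, and without Lhx5 the ratio is 0.393 in clone 1, 0.413 in clone 2 and 0.352 in WT.

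Other genes of the pathway were followed in lists. None of the 6 other LIM homeobox genes (Lhx3, Lhx4, Lhx6, Lhx8, Isl1 and Isl2) reached a mean of 1 FPKM. The most abundant was Lhx6, at 0.361 and 0.313 FPKM in clone 1, 0.760 and 0.850 FPKM in clone 2, and 0.710 to 0.893 FPKM in WT. In the fit without a filter on low values, Lhx6 passed in clone 1 against WT, where 5.32 percent of all genes did. Lhx3 and Lhx6 passed there in clone 2 against clone 1, where 20.8 percent of all genes did. Lhx3 had 0.373 and 0.201 FPKM in clone 1 and 0.0298 and 0.0173 FPKM in clone 2. Of the other LIM-only genes, Lmo2 stayed below the tested level and Lmo3 had 1.85 and 1.61 FPKM in clone 1, 3.56 and 3.98 FPKM in clone 2, and 2.41 to 3.80 FPKM in WT. Lmo3 fell in clone 1 by 0.58 on the log2 scale (limma adjusted p = 0.0238) and was 0.81 higher in clone 2 than in clone 1 (limma adjusted p = 0.00416). The clone 1 call was lost without clone 1 replicate 2 (limma adjusted p = 0.142), WT replicate 3 (limma adjusted p = 0.0636) or WT replicate 4 (limma adjusted p = 0.0516), and with no filter on low values (limma adjusted p = 0.0563).

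Among 8 LDB partner genes, 6 were tested. Gata2 and Tal1, blood factors that join LDB complexes, were below the tested level. Tcf12, an E protein that joins such complexes, had 42.6 and 37.9 FPKM in clone 1, 68.7 and 81.5 FPKM in clone 2, and 51.7 to 61.5 FPKM in WT. Clone 1 lay below and clone 2 above every WT library. It fell in clone 1 by 0.51 on the log2 scale (limma adjusted p = 0.0109) and rose in clone 2 by 0.37 (limma adjusted p = 0.0316). The related E protein gene Tcf3 fell by 0.18 in clone 1 (limma adjusted p = 0.0187) and rose by 0.16 in clone 2 (limma adjusted p = 0.0286). The Tcf3 call in clone 1 was lost after rescaling by the median ratio (limma adjusted p = 0.0905) and without clone 1 replicate 2 (limma adjusted p = 0.0971), WT replicate 1 (limma adjusted p = 0.0529) or WT replicate 4 (limma adjusted p = 0.0523). Ssbp3, whose protein binds LDB proteins and protects them from turnover, differed by 0.18 between clone 2 and clone 1 (limma adjusted p = 0.0398) and passed in neither clone against WT. The Ssbp3 call was lost in 7 of 13 alternatives, with limma adjusted p up to 0.198. Ssbp2, Ssbp4 and the LDB ubiquitin ligase gene Rlim passed in no comparison. Among the 6 partners, 2 were lower in clone 1 and 2 were higher in clone 2, beside 11.4 percent of all genes lower in clone 1 and 7.06 percent higher in clone 2. Their median log2 difference was -0.081 in clone 1, beside -0.048 over all genes, and 0.085 in clone 2, beside 0 over all genes. Without clone 1 replicate 2 no gene of these related lists passed in clone 1 against WT, and 1 passed without WT replicate 4. Without clone 2 replicate 2, WT replicate 3 or WT replicate 4 none passed in clone 2 against WT, and 1 passed without WT replicate 2. Pooled null against WT gave 0 of the 7 related genes tested by limma, with 1 at an unadjusted p under 0.05, and 0 by the authors' deposited p-values after adjustment.

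Genes whose pattern over the 8 libraries was most like that of Lhx5 were sought by the root mean square difference of their log2(FPKM + 1) deviations from the WT mean. No gene lay close to Lhx5. The nearest was Gm14870 at 0.895, followed by Gm37421 and Gm22112, both at 1.09, CAAA01147332.1 at 1.14 and Rps12-ps11 at 1.15, in names that GENCODE M21 gives for the IDs. Of these, Gm14870, Gm37421 and Rps12-ps11 are annotated as processed pseudogenes, and their reads may be shared with their parent genes. Gm22112 is annotated as a microRNA (miRNA). All of these genes were picked by these same values, so limma's calls on them are no separate evidence. By limma, Gm37421, Gm22112 and Rps12-ps11 passed in neither clone against WT, and Gm14870 and CAAA01147332.1 passed in both. The log2 difference of CAAA01147332.1 was -4.62 in clone 1 and -4.38 in clone 2, a larger fall than that of Lhx5. CAAA01147332.1 is annotated on scaffold JH584295.1 and not on an assembled chromosome. It had 0 to 0.395 FPKM in null libraries and 19.1 to 27.3 FPKM in WT, so it reached the tested level through its WT values. For Lhx2 the nearest were C130093G08Rik at 0.208, the collagen gene Col1a2 at 0.215 and Prag1 (D8Ertd82e by its deposited symbol) at 0.262.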

How the data were processed

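The authors deposited FPKM values for each of 8 poly(A) RNA libraries, as the file headers name them. The authors' deposited table also holds the mean read count per genotype (a signal whose scaling is not stated), their ratio as a fold, and a p-value with no stated test. The tools TopHat2, Cufflinks, DESeq2, FastQC and SAMtools and the GRCm38 (mm10) build appear in the submitters' processing notes without versions or roles. Total reads per library were not used here, so depth is unknown. FPKM summed to 518491 to 528726 per library, and 13983 to 14338 genes reached 1 FPKM.

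Headers number the null libraries per clone, so each was matched to its clone. Genes with a mean of at least 1 FPKM (14521) were fitted with limma 3.58.1 in R 4.3.3, with trend and robust moderation, on log2(FPKM + 1). This scale understates changes of low genes. The clone contrasts came from 1 fit of 3 groups that share 1 spread between libraries, and null against WT from a fit of 2 groups. P-values were adjusted over all tested genes by the Benjamini-Hochberg method at a threshold of 0.05. The fits were tested on simulated data. The rule for the members uses gene family alone, but members, lists and alternatives were set with earlier results of these data known, so the choice is not independent of them. All 10 members were named, as were list genes that passed in any comparison and the most abundant other gene, and the 5 genes nearest Lhx5 and 3 nearest Lhx2. Marker genes and the transcripts Gm27199 and Lhx1os were named besides. A marker gene is not reported here. Coordinates are those of GENCODE M21, and promoter sequences are from RefSeq.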

Additional observations from a re-analysis of the deposited data

Results flagged for a closer look

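Lmo1 had 1 WT library far from the others: WT replicate 2 lay at 34.5 FPKM, against 25.3 to 26.8 FPKM in the other WT libraries, and its gap was 0.844 of the group's range. Chance marks about 1 in 20 such groups, and 20 were looked at. Lmo1 also differed between the clones, by -0.86 on the log2 scale for clone 2 against clone 1, a call lost without clone 1 replicate 1, clone 1 replicate 2 or clone 2 replicate 2.

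The 2 deleted lines differed from each other in 3 further members by the test of clone 2 against clone 1, a comparison that 39.9 percent of all genes passed. The log2 difference was 0.35 for Lmx1b, with 42.3 and 41.2 FPKM in clone 2 and 34.1 and 31.2 FPKM in clone 1. It was 0.15 for Ldb1, with 131 and 137 FPKM in clone 2 and 122 and 119 FPKM in clone 1. It was -0.49 for Ldb2, with 0.421 and 0.366 FPKM in clone 2 and 1.09 and 0.820 FPKM in clone 1. The Ldb1 call was lost after rescaling by the median ratio (limma adjusted p = 0.0808) and without clone 2 replicate 2 (limma adjusted p = 0.100), and the Ldb2 call without clone 1 replicate 1 (limma adjusted p = 0.0625) or clone 2 replicate 2 (limma adjusted p = 0.0739).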

How the results depend on the processing

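Of 420 member results under alternatives, 381 kept their direction and their side of the threshold, 28 lost the call, 5 gained it and 6 changed sign. Results that had not passed and still did not pass count as kept. Leaving out a library of a group outside a comparison cannot move its log2 difference. The count of kept results is therefore no measure of robustness. The sign changes were in values that had not passed: Lmx1a in clone 2 against WT (-0.11 to 0.52 over the fits without 1 library), Lhx2 (-0.65 to 0.20) and Lmx1a (-0.38 to 0.25) in clone 2 against clone 1, Lmo1 in null against WT (-0.33 to 0.072), and Ldb1 in null against WT (-0.055 to 0.012, and 0.0086 after rescaling by the median ratio). Over the fits without 1 library, members called numbered 2 to 5 in clone 1 against WT, 3 to 5 in clone 2 against WT, 2 to 6 in clone 2 against clone 1 and 1 in null against WT, where the authors' p-values gave 3. Related genes called numbered 0 to 3 in clone 1 and 0 to 2 in clone 2 against WT, and 0 in clone 2 with no filter on low values and with limma without trend or robust moderation. The cause was not tested. The ratio of LIM-homeodomain to LDB RNA without Lhx5 was 0.393 in clone 1 and 0.352 in WT. Where 1 library of a clone was left out, the lone library was assumed to vary like the other groups. A minimum of 5 FPKM leaves out Ldb2. No paired analysis was possible because null libraries carry numbers per clone in the headers and across clones in the titles. Depth is unknown and limits Lhx1, Lhx9 and Ldb2 most.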
